A study of Arabidopsis thaliana with 3 samples.

Results

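The XTH genes of Arabidopsis encode xyloglucan endotransglucosylase/hydrolases, enzymes of the cell wall. They were taken as the probe sets whose single gene symbol is XTH followed by a number. The rule found 9 probe sets for 9 genes (XTH16, XTH18, XTH19, XTH20, XTH21, XTH26, XTH29, XTH32 and XTH33) among 22746 probe sets, of which 13513 carried a single gene symbol. The RefSeq gene table lists 33 loci of the family. One more of them, XTH27, was on the array under its older symbol EXGT-A3 and is described beside the 9, and the others were not analysed here. All 9 probe sets carry the plain suffix that the array's maker gives to probe sets designed for 1 transcript.

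The RNA came from whole Col-0 plants, the standard laboratory accession, grown for 14 days on Phytagel plates with MS medium and sucrose. Both groups were the same wild-type line and were flooded for 1 hour, the control with distilled water and the treated plants with 1 mM 2,4-D, a synthetic auxin used as a herbicide, dissolved in water at neutral pH. Biotin-labelled samples were read on Affymetrix ATH1 arrays, 1 for water and 2 for 2,4-D. No source used here says whether the treated samples came from separate plates or how many plants each held, so any p-value measures only the spread of the treated pair, which may be technical.

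Xyloglucan is the main hemicellulose of the growing wall in plants such as Arabidopsis, where it binds to cellulose microfibrils and to other xyloglucan chains. An XTH enzyme cuts a xyloglucan chain and either joins the cut end to another chain (endotransglucosylase activity) or to water (hydrolase activity), so it can reshape the network while the wall expands. Auxin makes cells extend by loosening the wall, and members of the family differ in the organ they serve and in their response to hormones.

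The labels' whole-plant tissue was checked against marker genes. The leaf markers LHCB4.1, LHCB4.2 and RCA were the 3 of 20 listed genes that could be named. Their summed signal was 19971 with water, against 13273 and 20422 after 2,4-D. Of 19 root markers 3 were named, with a summed signal of 2321 with water, against 3008 and 2458 after 2,4-D, nearly all of it from PYK10, a beta-glucosidase gene of roots. None of the 8 xylem markers could be named. The spiked-in bacterial bioB control was brighter on the water array (geometric mean signal 228) than on the treated arrays (102 and 79.8), as was bioC (621, 303 and 215). The part of the spike-in difference in the changes below was not tested. In whole plants, fewer cells of a type and less RNA per cell cannot be told apart.

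A signal is the authors' MAS5 value for a probe set, on a linear scale. To judge low signals, the brightest of 27 Bacillus control probe sets, for transcripts the plant does not have, was taken on each array: 13.9 with water, against 10.7 and 8.37 after 2,4-D. A signal at or below it is called dim. Of the 9 XTH genes, 5 were above it on all 3 arrays (XTH16, XTH18, XTH19, XTH20 and XTH32), and these were also the 5 bright enough on average to be tested. Signals of different probe sets were not compared, since each probe set binds with its own strength.

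**Figure D1:**
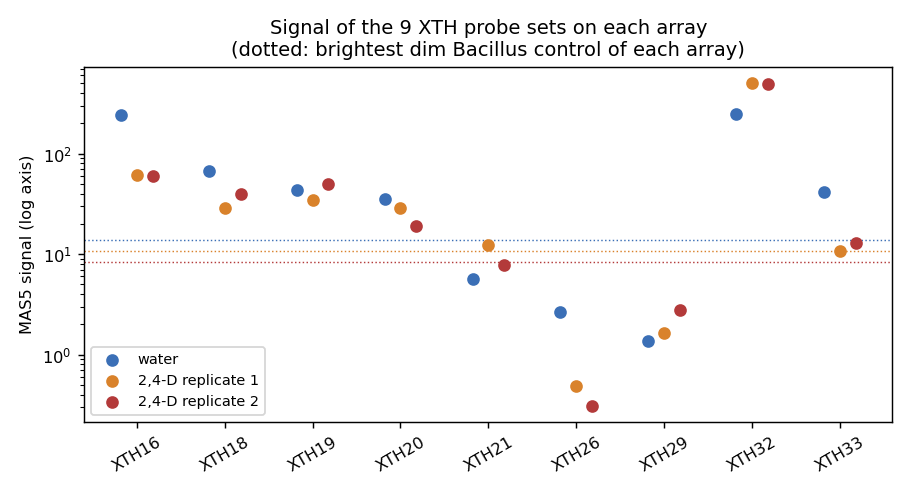
MAS5 signal (log axis) of each XTH probe set on the water array (blue) and the 2,4-D arrays (orange and red), with the brightest Bacillus control of each array as a dotted line in the same colour. XTH16 and XTH33 were lower on both treated arrays, XTH32 was higher on both, and XTH26 and XTH29 lay below the dotted lines on every array. Heights may be compared between arrays for 1 gene, not between genes.

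The tested XTH genes did not move one way: XTH16 and XTH18 fell, XTH32 rose, and XTH19 and XTH20 did not pass the test. XTH16 was at 25.0% of its water signal after 1 hour of 2,4-D, and XTH32 was at 201%. Of the 5 tested genes 1 was called higher and 2 lower by limma at an adjusted p of 0.05. Among the 13648 tested probe sets 10.8% were called higher and 10.5% lower. The fit compares the log2 signals of the treated pair with the single water array, whose own spread could not be measured. The 4 genes that could not be tested are given by their signals. By size alone, 0 of the 9 were raised 2-fold or more on both treated arrays, against 5.89% of all probe sets (3.8% of the tested ones). In the other direction 3 of the 9 were lowered 2-fold or more on both (XTH16, XTH33 and XTH26, the last dim on every array), against 8.63% of all probe sets (3.14% of the tested ones). XTH32 missed the higher count narrowly, with a log2 ratio to water of 1.04 on 2,4-D replicate 1 and 0.98 on replicate 2.

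XTH16 (AT3G23730) belongs to the large group of the family whose studied members act as endotransglucosylases. Its signal was 242 with water, 62.0 on 2,4-D replicate 1 and 59.3 on replicate 2. The water array was the high one, both treated arrays lay close together, and even the lower treated signal was several times its dim control (5.77 and 7.08 times on the treated arrays). The fitted log2 change was -2.0 ± 0.24 (SE, n = 2 against 1), a fall of 3.99-fold with a 95% interval of 2.86 to 5.56-fold and a limma adjusted p of 3.6e-14. That p takes the variance from probe sets of like signal, and it was 0.00156 without the intensity trend. Among all 13648 tested probe sets, 29 had a lower fitted change.

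XTH18 (AT4G30280), XTH19 (AT4G30290) and XTH20 (AT5G48070) are close relatives within the same group and are known from roots. XTH18 and XTH19 are neighbours on chromosome 4, with 0 protein-coding genes between them in the RefSeq table. The signal of XTH18 was 67.2 with water, against 28.8 and 39.4 after 2,4-D, so both treated arrays lay below the water array. Its log2 change was -1.0 ± 0.35, a fall of 1.99-fold with a 95% interval of 1.23 to 3.22-fold (limma adjusted p = 0.0274). The call was lost when the arrays were scaled to 1 median (adjusted p = 0.0567) and when the filter on low signal was dropped (adjusted p = 0.123). Over the alternatives that tested XTH18, the adjusted p lay between 0.0209 and 0.123.

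XTH19, which together with XTH20 is known to act in the healing of cut flowering stems, had a signal of 43.2 with water, against 34.9 and 50.4 after 2,4-D. The water value lay between the treated ones, and the fitted log2 change was -0.05 with a 95% interval of -0.74 to 0.65 (limma adjusted p = 0.946). A change of XTH19 within that interval, in either direction, is not excluded. Its sign turned after scaling to 1 median (0.073) and after quantile normalization (0.062). XTH20 had 35.5 with water, against 29.1 and 19.2 after 2,4-D. Both treated arrays were below water. They differed from each other by 0.60 on the log2 scale, against a median of 0.20 over tested probe sets of all signals. This gap was 0.53 for XTH19 and 0.45 for XTH18. A gene's own gap does not set its SE here, since the variance comes from probe sets of like signal. The log2 change of XTH20 was -0.59 with a 95% interval of -1.48 to 0.30 and did not pass (limma adjusted p = 0.382).

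Because each array is scaled as a whole, the ratio of 2 signals on 1 array does not depend on the scaling. A change in that ratio is an unequal change of the 2 signals. It still holds the spread of the water array, which could not be measured. The XTH19 to XTH18 ratio was 1.88-fold higher than with water on 2,4-D replicate 1 and 1.99-fold higher on replicate 2. The XTH32 to XTH16 ratio was 8-fold and 8.05-fold higher on the same arrays. Between the treated arrays other pairs shifted less evenly: the XTH32 to XTH18 ratio was 4.78-fold and 3.36-fold higher than with water, and the XTH18 to XTH16 ratio 1.68-fold and 2.39-fold higher. All 4 ratios moved the same way on both treated arrays. In each pair the gene with the higher fitted change was put on top, and both treated ratios share 1 water ratio. Their direction therefore repeats the changes of the single genes and is no separate support. No test was run on these ratios, since they hold 1 water value.

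XTH32 (AT2G36870) belongs with XTH31 to a small branch of the family in which hydrolase activity is known. Its signal was 247 with water, 507 on 2,4-D replicate 1 and 488 on replicate 2. Both treated arrays were about equally far above the water array. The fitted log2 change was 1.01 ± 0.19 (SE, n = 2 against 1), a rise of 2.01-fold with a 95% interval of 1.54 to 2.62-fold (limma adjusted p = 5.81e-06). Among the tested probe sets 643 had a higher fitted change. The call held in every test run with another scaling, filter, offset or variance model, with the highest adjusted p, 0.0264, without the intensity trend.

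**Figure D2:**
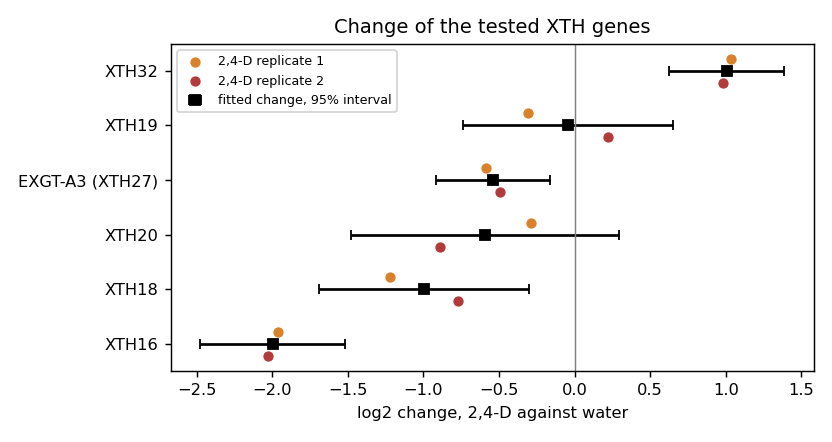
Fitted log2 change with 2,4-D against water for the 5 tested XTH genes and EXGT-A3 (black squares, bars are 95% intervals of the limma fit), with the log2 ratio of each treated array to the water array (orange and red points). The interval of XTH16 ends at -1.52, that of XTH32 starts at 0.63, and those of XTH19 and XTH20 hold 0.

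EXGT-A3 (AT2G01850, XTH27), which is known to act in the water-conducting cells of leaf veins, had a signal of 498 with water, against 331 and 354 after 2,4-D. Both treated arrays were lower than water and differed little from each other. The log2 change was -0.54 ± 0.19, a fall of 1.45-fold with a 95% interval of 1.12 to 1.89-fold (limma adjusted p = 0.0297). The call was lost with the arrays scaled to 1 median (adjusted p = 0.101), without a filter (adjusted p = 0.0845) and without the intensity trend (adjusted p = 0.173).

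**Figure D3:**
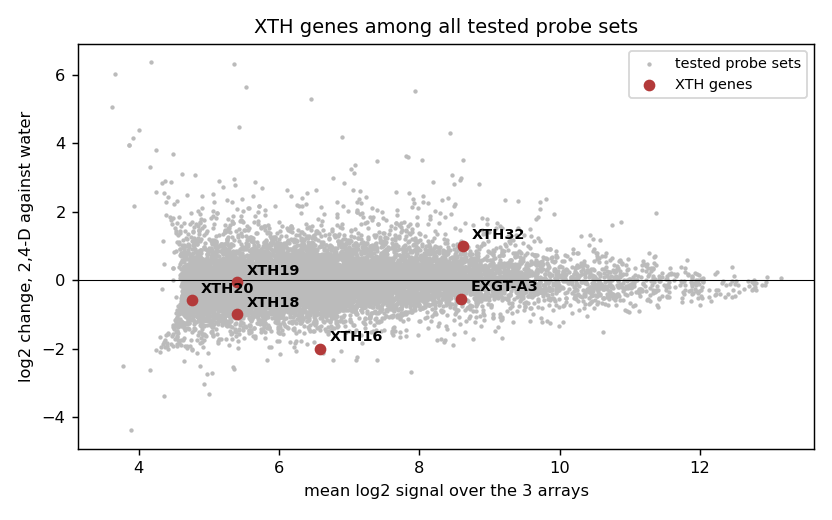
Fitted log2 change against mean log2 signal over the 3 arrays for all 13648 tested probe sets (grey), with the tested XTH genes and EXGT-A3 in red. XTH16 (-2.0) lies at the lower edge of the cloud at its signal, XTH32 (1.01) near the upper edge, and XTH19 (-0.05) in the middle.

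The 4 other XTH genes had a mean signal below 24.8, the limit for testing. XTH33 (AT1G10550), whose product is held at the plasma membrane, had 41.2 with water, against 10.7 and 13.0 after 2,4-D. It was 2.97 times the dim control on the water array, just under it on 2,4-D replicate 1 and 1.55 times it on replicate 2. Its mean log2 change was -1.81, a 3.5-fold lower signal. In a fit to all 22746 probe sets with no filter, where 4.24% were called higher and 3.12% lower, its 95% interval was -3.14 to -0.47 and its limma adjusted p was 0.105, so it did not pass. The size depends on how low signals are treated, with -1.04 after an offset of 16 was added before log2.

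XTH21 (AT2G18800), known from root elongation, had 5.63 with water, against 12.2 and 7.88 after 2,4-D. Only the first treated signal was above its control, so no fold is given. XTH26 (AT4G28850), known from root hairs, had 2.66 with water, against 0.483 and 0.308 after 2,4-D, and XTH29 (AT4G18990), known from responses to cold and heat, had 1.36, 1.65 and 2.80. Both were dim on all 3 arrays, which gives no level and no direction. In the test without a filter the limma adjusted p was 0.672 for XTH21, 0.318 for XTH26 and 0.83 for XTH29. The root-hair expansin genes listed as root markers were lower with 2,4-D in signal. EXPA18 had 43.8 with water, against 7.98 and 3.55 after 2,4-D, both dim, and EXPA7 had 37.0, 15.1 and 15.3. Neither passed in the test without a filter (limma adjusted p = 0.0558 for EXPA18 and 0.206 for EXPA7). PYK10 had 2240, 2985 and 2439 on the same arrays (log2 change 0.27, limma adjusted p = 0.546). The part of root cell makeup in the XTH signals was not tested.

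**Figure D4:**
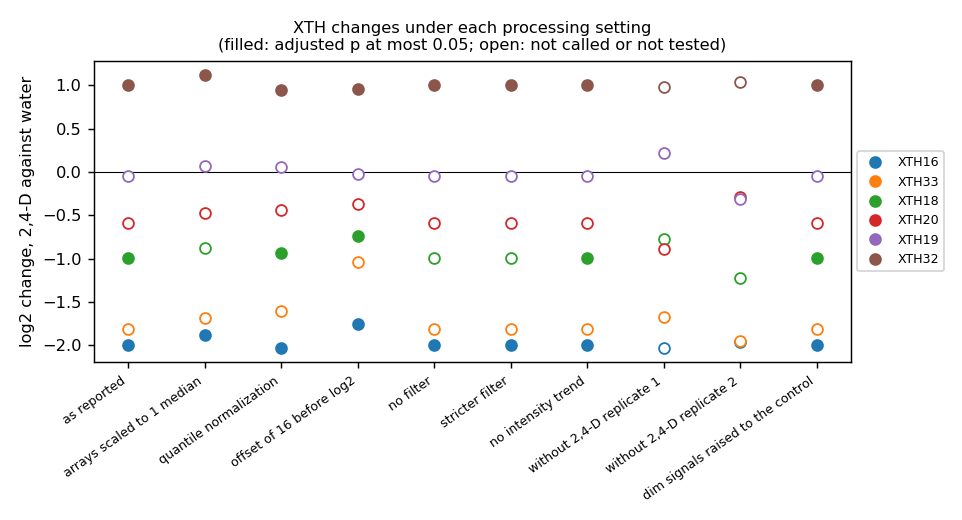
Log2 change with 2,4-D against water of XTH16, XTH18, XTH19, XTH20, XTH32 and the untested XTH33 under each processing setting. Filled points passed an adjusted p of 0.05, and open points did not pass or were not tested, as in the settings that leave out a treated array. XTH16 stayed between -2.03 and -1.75 and XTH32 between 0.95 and 1.12, whereas XTH19 lay on both sides of 0.

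The genes with the pattern most like each tested XTH gene were sought among 7283 other tested probe sets with a single symbol, by Euclidean distance over the log2 ratios of the 2 treated arrays to the water array. This is a description over 3 arrays. Nearest to XTH16 were AT1G26300 (distance 0.11, signals of 69.0, 18 and 15.7 on the water array and 2,4-D replicates 1 and 2) and AT2G25250 (0.11). For XTH32 they were AT3G14560 (0.0096, signals of 56.2, 114 and 111) and atpA (0.021), a plastid gene for a subunit of the ATP synthase. For XTH18 they were AT5G65170 (0.017) and AT1G34640 (0.032), for XTH19 AT5G60800 (0.0071) and AT4G37220 (0.012), and for XTH20 AT2G16790 (0.0023) and AT1G26450 (0.019). XTH16 had a larger distance to its nearest gene than the other 4 had to theirs. Only 29 of the 13648 tested probe sets had a lower fitted change than XTH16, so few could lie near it. Among these neighbours were 0 XTH genes, which is no result about the family, since only 5 of its genes were tested among so many probe sets.

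Other cell wall genes were counted from lists. Expansins, which loosen the bonds between cellulose and xyloglucan without cutting chains, had 12 tested genes of 18 named, of which 3 rose and 1 fell, where 10.8% of all tested probe sets were called higher and 10.5% lower. The filter shaped this count: EXPA16 and EXLA3 had a water signal below its limit of 24.8 and passed through the treated arrays, while EXPA18 and EXPA7, lower with 2,4-D, did not pass it. The median log2 change was 0.21 over the 12 tested genes, against -0.04 over all tested probe sets, -0.34 over all 18 with no filter and -0.27 over 9 with the stricter filter. EXPA8 fell, with a signal of 969 with water, against 307 and 279 after 2,4-D (log2 change -1.73, limma adjusted p = 1.15e-16). EXPA15 rose from 173 to 328 and 359 (0.99, limma adjusted p = 1e-05), and EXPA16 rose from 20.4 to 56.1 and 78.4 (1.70, limma adjusted p = 1.62e-05, and 0.0106 with no filter). EXLA3, an expansin-like gene, rose from a dim 9.67 to 35.5 and 32.8 (limma adjusted p = 0.00309), a call lost without a filter (adjusted p = 0.0582). With its dim water signal raised to that array's control of 13.9, EXLA3 was 2.46-fold higher. This is a point value and no lower limit of the change. The limma interval for the signals as given began at 1.78-fold, and at 1.59-fold with no filter. EXLA1 had a log2 change of -0.61 (limma adjusted p = 0.0597) and EXPA4 of -0.38 (limma adjusted p = 0.183).

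Of 20 listed genes of xyloglucan synthesis 4 were named and 3 tested, all of the CSLC family that makes the glucan backbone. Limma called 0 of the 3, where 10.8% of all tested probe sets were called higher and 10.5% lower. So few genes give no account of the pathway. CSLC12, below the limit for testing, had signals of 20.3 with water, against 17.1 and 5.75 after 2,4-D. CSLC04 had signals of 179 with water, against 179 and 180 after 2,4-D, and its log2 change of 0.01 had a 95% interval of -0.40 to 0.41. CSLC5 had a log2 change of 0.04 with an interval of -0.38 to 0.45, and CSLC6 of -0.04 with an interval of -0.59 to 0.52. None of the 3 had an unadjusted p under 0.05, and the median was 0.01. Of 17 listed genes of cellulose synthesis only 1 was named and tested: COB, for an anchored protein that orients cellulose deposition. It fell from 837 to 433 and 408, a log2 change of -0.99 (limma adjusted p = 1.19e-05). Of 102 listed pectin genes 4 were named and 2 tested. The 2 did not pass, with -0.12 for GAUT15 (limma adjusted p = 0.878) and 0.21 for the pectin methylesterase gene ATPMEPCRB (limma adjusted p = 0.738). No gene of the lists for xyloglucan breakdown and for brassinosteroid and auxin signalling upstream of XTH genes could be named.

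**Figure D5:**
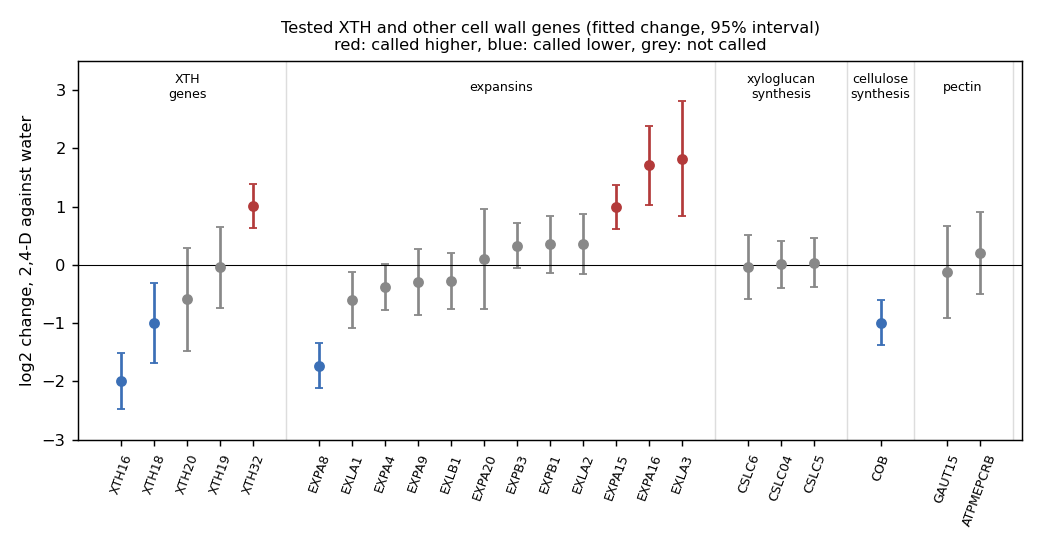
Fitted log2 change with 95% interval for the tested XTH genes, expansins and genes of xyloglucan, cellulose and pectin synthesis or modification. Red points were called higher, blue points lower and grey points neither. Calls in both directions stand among the XTH genes and the expansins, and the 3 xyloglucan synthesis genes lie between -0.04 and 0.04.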

How the data were processed

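Arrays of 1 colour were read for 3 samples. The authors deposited linear intensities, which MAS5 produced according to the submitters' processing notes. MAS5 gives 1 signal for a probe set and scales each array. Neither its version nor its target is given in the sources used here. The trimmed mean of every array was 100.01. Probe sets were named through a probe-to-gene table and the RefSeq table of assembly TAIR10.1, for names and neighbours only. Signals were taken to log2 with no further normalization. Of 22746 probe sets outside the controls, the 13648 with a mean signal at or above the 40th percentile (24.8) were tested. This mean holds 2 treated arrays, so dim genes that rose passed more easily than dim genes that fell. For the comparison, lmFit and eBayes were run with an intensity trend (limma 3.58.1, R 4.3.3), and p-values were adjusted by the Benjamini-Hochberg method over all probe sets tested. The fit had 1 residual degree of freedom, took the water array to vary like the treated pair, and estimated infinite prior degrees of freedom, so every SE comes from the trend over signal. Precision is limited by how few arrays there are. A size count needed a 2-fold difference on both treated arrays. Named were all XTH genes, EXGT-A3, the 2 genes nearest in pattern to each tested member, and, from each list, called genes and up to 2 other tested genes with the largest change. CSLC04, CSLC12 and the marker genes were named outside this rule. The members and lists were chosen with earlier results of these data known. Alternatives were 2 other scalings, an offset of 16 before log2, no filter, a 60th-percentile filter, no intensity trend, leaving out each treated array and, chosen after seeing the data, raising dim signals to the control's.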

Additional observations from a re-analysis of the deposited data

How the results depend on the processing

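XTH16 and XTH32 kept their direction and their call under every alternative that gave a test, and their direction with either treated array left out (log2 change -2.03 to -1.97 for XTH16, 0.98 to 1.04 for XTH32). XTH18 kept its direction but lost its call with the arrays scaled to 1 median (log2 change -0.88) and without a filter (-1.0, with more probe sets tested). XTH genes called lower then numbered 1, as with the stricter filter, which removed XTH18, XTH19 and XTH20 and so gave no test for them. XTH19 reversed with the arrays scaled to 1 median (0.073), with quantile normalization (0.062) and without 2,4-D replicate 1, the range without a replicate being -0.31 to 0.22. Relative to the median of all tested probe sets, which moved from -0.04 to 0.07 on scaling to 1 median, XTH19 was at -0.0013 and -0.0020. The cause of the other moves was not tested, except where a move follows by construction. An offset shrinks dim signals by construction: with it the log2 changes of XTH33, XTH21, XTH26 and XTH29 were -1.04, 0.26, -0.19 and 0.070. That of XTH33 was -1.60 with quantile normalization. The calls over all probe sets, 1472 higher and 1434 lower, became 964 and 710 without a filter and 834 and 839 without the intensity trend. Scaling to 1 median gave 2031 higher and 991 lower. At least 2-fold on both treated arrays were 519 higher and 429 lower, against 308 and 204 with the offset and 1339 and 1964 without a filter. The lower count was 266 with scaling to 1 median and 212 with the stricter filter. With a treated replicate left out, 2-fold was needed on the 1 remaining treated array only. That looser rule gave 706 to 768 lower, which is not a like count. With the stricter filter 1 gene of the other wall lists was called higher in place of 3. No paired analysis was possible because the groups share 1 replicate number only. A second water array would be needed to measure the spread of the control.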
